A study of Mus musculus with 6 samples.

Results

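The collagen genes of the mouse prostate were followed across 6 bulk RNA-seq libraries. Every gene whose whole symbol reads COL, a number, A and a number was taken, without regard to its level, which gave 44 genes of the 24908 listed. The donors were 1 wild-type mouse (WT) and 1 Hi-MYC mouse (MYC), each of which gave its anterior (AP), dorsolateral (DLP) and ventral (VP) prostate lobe. They were male FVB littermates aged 12 weeks and fed a purified diet after weaning. The MYC mouse was heterozygous for a human c-MYC transgene under the ARR2Pb promoter, which drives it in the prostatic epithelium. Each lobe was dissociated with enzymes, collagenase among them, into a cell suspension, and poly(A) RNA of an aliquot of its cells was sequenced. Each lobe and genotype gave 1 library, and the 3 libraries of a genotype came from 1 animal, so that genotype and animal cannot be told apart and no p-value could be computed.

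Collagens are trimers of chains that wind into a triple helix. The fibrillar collagens (types I, III and V) form the cables of the stroma and are made mainly by fibroblasts and smooth muscle cells. Type IV collagen forms the sheet-like network of basement membranes under epithelia and around vessels and muscle, type VI forms beaded filaments next to it, and types VII and XVII anchor epithelial cells to it. In the mouse prostate, the ducts of each lobe are wrapped in a thin stroma of smooth muscle cells and fibroblasts.

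The table gives FPKM, which count sequenced fragments relative to transcript length and library depth, so that levels of different genes can be compared within a library. The depth, estimated from the steps between low FPKM values, was lowest in WT AP, at 25.5 M mapped reads, and highest in MYC AP, at 50.2 M. Changes are given as log2 ratios of FPKM + 1, over the 12361 genes whose mean reached 1 FPKM, and a gene is called higher or lower at a 2-fold ratio. Of the 44 collagen genes, 30 passed this filter, and 14 did not. The lowest mean inside the filter was 1.38 FPKM (Col11a2) and the highest outside it was 0.458 FPKM (Col9a2).

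The libraries also differed in the levels of cell type markers. Summed over 12 fibroblast markers that are not collagens, FPKM were 2342 in WT AP, 2509 in WT DLP, 1255 in WT VP, and 2565, 1124 and 323 in the same lobes of MYC. A sum over 7 hematopoietic markers was 170 and 172 in the AP of WT and MYC, 84.2 and 334 in the DLP, and 38.0 and 214 in the VP. The luminal keratins and junction genes that define the epithelium were high in every library, with sums of 2079 to 4142 FPKM over 5 genes. MYC AP stood apart in seminal vesicle secretion genes, whose sum was 524 FPKM there, 11.3 in MYC DLP, at most 0.186 in the WT libraries and 0 in MYC VP. Every ratio of MYC against WT in AP below rests on the MYC AP library. In bulk RNA, fewer cells of a type and less RNA per cell cannot be told apart.

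In WT, Col17a1, Col18a1, Col1a2 and Col6a1 were among the 5 highest collagens of each lobe, and the VP had the lowest summed level. The FPKM of all 44 genes summed to 536 in AP, 496 in DLP and 324 in VP. Col17a1, the transmembrane collagen of hemidesmosomes that basal epithelial cells make, was the highest collagen in WT AP (82.0 FPKM) and WT DLP (75.2 FPKM). Col18a1, a heparan sulfate-bearing collagen of basement membranes and the source of endostatin, was the highest in WT VP (38.0 FPKM) and the next highest in the other two WT lobes. The 5 highest genes together held 50.02% of all collagen FPKM in WT AP, 49.1% in WT DLP and 43.0% in WT VP, so that no single chain dominated a WT library.

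**Figure D1:**
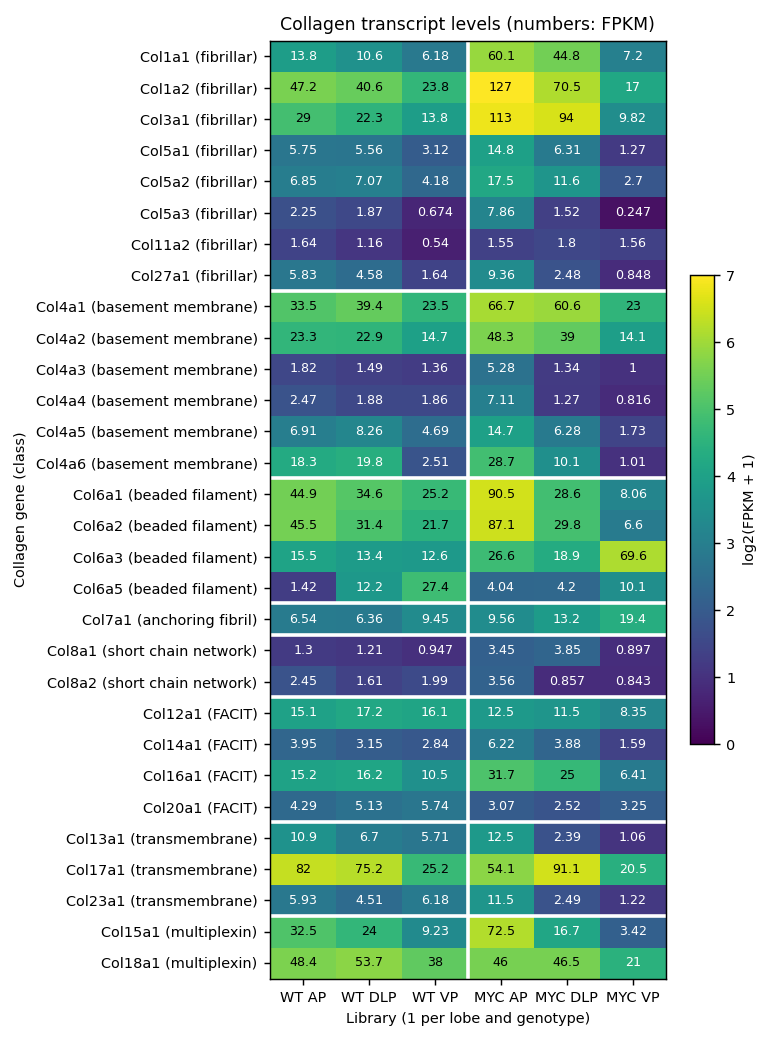
Levels of the 30 collagen genes compared, grouped by class. Each row is a gene, each column a library, the number in a cell is its FPKM and the colour its log2(FPKM + 1); 7 of the 8 fibrillar genes are highest in MYC AP, and Col6a3 at 69.6 FPKM is the highest collagen in MYC VP.

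Against WT AP, 7 of the 30 genes were at least 2-fold lower in WT VP and 1 was higher, where 10.3% and 7.89% of all genes compared were lower and higher. The median log2 ratio was -0.55, against -0.01 over all genes compared, and 25 of the 30 genes lay below 0. Under size factors, 4 genes were lower and 1 was higher. The 12 fibroblast markers had a median of -0.94 in the same contrast, further below 0 than the collagens, with 6 called lower, and their part in it was not tested. Against WT DLP, 4 genes were lower and 1 was higher, where 6.29% and 2.63% of all genes were, and the median was -0.50 for the collagens and -0.99 for the fibroblast markers. By median, the collagens were thus not lower in WT VP relative to these markers, but this did not hold for every gene. Against WT AP, Col1a1 (-1.05), Col3a1 (-1.02) and Col4a6 (-2.46) were among those below the marker median. The 10 smooth muscle markers had medians of 0.48 against WT AP and -0.35 against WT DLP, above those of the collagens. Their part was not tested either. WT DLP and WT AP were closest, with 1 gene at least 2-fold higher in DLP and none lower, where 3.85% and 1.31% of all genes were.

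Col4a6, a chain of the type IV network found mainly under epithelia and around smooth muscle, differed most among the lower genes. It had 18.3 FPKM in WT AP, 19.8 in WT DLP and 2.51 in WT VP, 7.29-fold lower in VP than in AP. Its partner chain Col4a5 had 6.91, 8.26 and 4.69 FPKM in the same libraries. The ratio of Col4a6 to Col4a5 was therefore 2.65 in WT AP, 2.39 in WT DLP and 0.535 in WT VP. Col17a1 was also lower in WT VP (25.2 FPKM), as was Col15a1 (9.23 FPKM against 32.5 in WT AP), a multiplexin of basement membrane zones around vessels and muscle. The sum of the 7 basal epithelial markers, among them Krt5 and Trp63, was 1508 FPKM in WT AP, 1066 in WT DLP and 498 in WT VP, and that of 10 endothelial markers was 243, 173 and 38.5, and their part in these differences was not tested.

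Col6a5 ran the other way. This long type VI chain had 1.42 FPKM in WT AP, 12.2 in WT DLP and 27.4 in WT VP. It was 19.3-fold higher in VP than in AP and 8.60-fold higher in DLP than in AP, as ratios of FPKM. Of the 30 genes compared, it was the only collagen at least 2-fold higher in WT VP than in either other WT lobe, and was second to Col18a1 among the collagens of WT VP. Col6a6, the neighbouring gene of the same subfamily, lay between 0.179 and 0.485 FPKM in the WT libraries, and Col6a4 below 0.1 FPKM.

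In MYC against WT, the collagens were mostly higher in AP and mostly lower in VP as FPKM, though not relative to the fibroblast markers, 11 of 12 of which were called lower in VP. Less the fibroblast median of each lobe, the collagen median was above 0 in all 3 lobes. In the AP, 12 of the 30 genes were at least 2-fold higher in MYC and none was lower, where 2.05% of all genes compared were higher and 0.599% lower. In the VP, 1 gene was higher and 7 were lower, where 6.88% and 5.95% of all genes were. With a pseudocount of 0.1 in place of 1, the VP counts were 3 higher and 12 lower. The DLP lay between, with 3 genes higher and 2 lower, where 6.46% and 3.39% of all genes were. As a median, the log2 ratio of a collagen was 0.96 for AP, -0.08 for DLP and -0.60 for VP, against 0.13, 0.03 and 0.04 over all genes compared. The DLP median was 0.47 over the 15 collagens with a mean of 10 FPKM or more, so its sign depends on which genes are taken. Summed over all 44 genes, collagen FPKM went from 536 to 998 in AP, from 496 to 655 in DLP and from 324 to 266 in VP. With library size factors from medians of ratios, which move the median of all genes in AP from 0.13 to 0.00, the AP count was 8 rather than 12, with none lower.

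**Figure D2:**
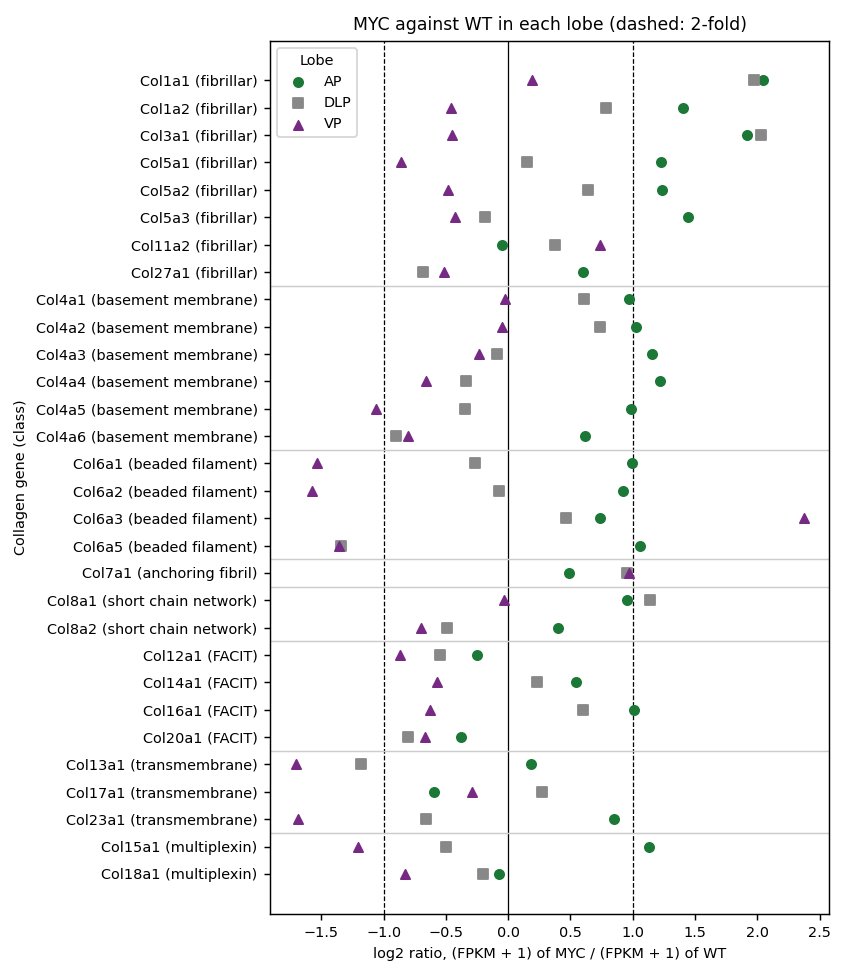
Log2 ratios of MYC against WT for the 30 collagen genes in each lobe, on the scale of FPKM + 1. Circles (AP) lie mostly right of 0, triangles (VP) mostly left of it, and dashed lines mark the 2-fold threshold; each point compares 1 library with 1 library.

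The type I and III collagens, the bulk of stromal fibrils, were higher in MYC in AP and DLP, while in VP no chain was past 1.5-fold on the scale of FPKM + 1. Col1a1 (chr11:94936224-94953042) had 13.8 FPKM in WT AP and 60.1 in MYC AP, 10.6 in WT DLP and 44.8 in MYC DLP, and 6.18 in WT VP and 7.20 in MYC VP. It was 4.35-fold higher in MYC in AP, 4.21-fold higher in DLP and 1.17-fold in VP, as ratios of FPKM. The MYC and WT libraries were thus far apart in AP and DLP and near each other in VP. Col3a1 (chr1:45311538-45349706), the homotrimer of reticular fibres, had 29.0 and 113 FPKM in the AP of WT and MYC, 22.3 and 94.0 in the DLP, and 13.8 and 9.82 in the VP. In MYC AP and MYC DLP, Col3a1 was above every WT library, and in MYC VP it was below every WT library. Col1a2, the other chain of type I, had 47.2 and 127 FPKM in the AP, 40.6 and 70.5 in the DLP, and 23.8 and 17.0 in the VP. Its log2 ratio was 1.41 for AP, 0.78 for DLP and -0.46 for VP, so that only the AP passed 2-fold.

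Type I collagen is made of 2 Col1a1 chains and 1 Col1a2 chain, and the ratio of their transcripts differed between the WT and the MYC mouse. Col1a1 over Col1a2 was 0.293 in WT AP, 0.262 in WT DLP and 0.260 in WT VP, and 0.474, 0.636 and 0.424 in the same lobes of MYC. The 3 MYC values all lay above the 3 WT values. The values of a genotype are lobes of 1 mouse, so this is a single difference between animals. How many other gene pairs differ in this way was not counted.

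The minor fibrillar chains of type V, which control the diameter of type I fibrils, had log2 ratios in AP of 1.22 (Col5a1), 1.24 (Col5a2) and 1.45 (Col5a3). In VP they were -0.86, -0.48 and -0.43, none past 2-fold on the scale of FPKM + 1. As ratios of FPKM, MYC VP was 2.45-fold lower than WT VP for Col5a1, 2.73-fold for Col5a3 and 1.55-fold for Col5a2. Col5a3 was low there, at 0.674 FPKM for WT and 0.247 for MYC. On the scale of FPKM + 1, 6 of the 8 fibrillar genes compared were called higher in AP, 2 in DLP and none in VP, where 2.05%, 6.46% and 6.88% of all genes were. None was called lower in any lobe on that scale, where 0.599%, 3.39% and 5.95% were. The VP count depends on the scale, given the ratios of FPKM of Col5a1 and Col5a3. Col27a1 had 0.60, -0.68 and -0.51 in AP, DLP and VP. Col11a2, mainly a cartilage collagen, was the single gene with the reverse pattern, at -0.05 in AP and 0.74 in VP, at levels of 0.540 to 1.80 FPKM. Its AP levels were nearly equal, at 1.64 FPKM in WT and 1.55 in MYC.

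Basement membrane collagen was higher in MYC AP, with all 6 type IV genes above 0 and 3 of them past 2-fold, where 8206 of the 12361 genes compared were above 0 and 2.05% past 2-fold. Under size factors, Col4a2 was at 0.88 and no longer past it. Col4a1 had 33.5 and 66.7 FPKM in the AP of WT and MYC, 39.4 and 60.6 in the DLP, and 23.5 and 23.0 in the VP. Col4a2, its partner in the type IV molecule of nearly all basement membranes, had 23.3 and 48.3 FPKM in the AP, 22.9 and 39.0 in the DLP, and 14.7 and 14.1 in the VP. In VP the difference was within counting error for both: the 95% interval of the log2 ratio of estimated reads was -0.10 to 0.04 for Col4a1 and -0.16 to 0.04 for Col4a2. These intervals are exact binomial (Clopper-Pearson) intervals that cover counting error and not the difference between animals.

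Col4a1 and Col4a2 kept their ratio in every library, between 1.38 and 1.72, whatever the lobe and genotype. The genes lie head to head on chromosome 8, Col4a1 on the minus strand and Col4a2 on the plus strand, and their spans overlap by 85 bases. The RefSeq promoter windows (GRCm38.p6, 250 bases before to 50 after each start) are printed 5′ to 3′ on each gene's strand to show this shared start region: chr8:11312777-11313076 for Col4a1 and chr8:11312555-11312854 for Col4a2. Capitals mark CCAAT and GGGCGG on either strand.
Col4a1: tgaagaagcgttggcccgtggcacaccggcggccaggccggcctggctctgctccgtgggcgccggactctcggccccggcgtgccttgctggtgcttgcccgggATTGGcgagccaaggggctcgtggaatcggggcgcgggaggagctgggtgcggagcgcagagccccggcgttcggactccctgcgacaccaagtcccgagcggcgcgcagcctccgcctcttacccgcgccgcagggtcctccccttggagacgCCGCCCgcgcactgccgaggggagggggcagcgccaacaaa
Col4a2: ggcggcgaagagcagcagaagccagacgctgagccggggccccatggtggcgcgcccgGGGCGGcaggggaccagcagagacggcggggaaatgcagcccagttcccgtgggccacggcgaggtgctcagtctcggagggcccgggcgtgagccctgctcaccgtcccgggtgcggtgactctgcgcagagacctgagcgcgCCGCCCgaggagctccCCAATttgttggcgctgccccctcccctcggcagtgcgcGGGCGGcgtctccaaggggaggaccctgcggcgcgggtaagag
The last 78 bases of either window are the reverse complement of the last 78 of the other. The GGGCGG at base 8 after the start of Col4a2 and the CCGCCC at base 10 after the start of Col4a1 are the same 6 base pairs of the genome, which start at base 11312812.

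The other type IV pairs kept step less closely. Col4a3 and Col4a4, whose spans overlap by 114 bases, had log2 ratios of 1.15 and 1.22 in AP, -0.09 and -0.34 in DLP, and -0.24 and -0.66 in VP. Their ratio of FPKM lay between 0.729 and 1.23. Col4a5 and Col4a6 are 1274 bases apart on the X chromosome and start in opposite directions. Col4a6 had 18.3 and 28.7 FPKM in the AP of WT and MYC, 19.8 and 10.1 in the DLP, and 2.51 and 1.01 in the VP. In VP it was short of 2-fold lower on the scale of FPKM + 1 (-0.80). It was past 2-fold with a pseudocount of 0.1 (-1.23) and as a ratio of FPKM (2.48-fold). Col4a5 was 2-fold lower in MYC VP, at a log2 ratio of -1.06. The ratio of Col4a6 to Col4a5 spanned 4.96-fold over the 6 libraries and was below 1 in both VP libraries and above 1 in the others. Among the AP and DLP libraries, both values of the MYC mouse (1.95 and 1.61) lay below both values of the WT mouse, again a difference between single animals.

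Chains of the type VI molecule went in opposite directions in VP, and Col6a3 had the largest ratio of all collagens there. Col6a1 (chr10:76708792-76726044) had 44.9 and 90.5 FPKM in the AP of WT and MYC, 34.6 and 28.6 in the DLP, and 25.2 and 8.06 in the VP. Col6a2 (chr10:76595756-76623630) had 45.5 and 87.1 FPKM in the AP, 31.4 and 29.8 in the DLP, and 21.7 and 6.60 in the VP. Both were lower in MYC VP, with log2 ratios of -1.54 and -1.58, and close to 2-fold higher in MYC AP, with 0.997 and 0.92 (1.01 for Col6a1 with a pseudocount of 0.1). Their ratio to each other stayed between 0.961 and 1.22 in all 6 libraries.

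Col6a3 (chr1:90766860-90844001), the long chain that joins Col6a1 and Col6a2 in the type VI molecule and carries endotrophin at its end, did not follow them in VP. It had 15.5 and 26.6 FPKM in the AP of WT and MYC, 13.4 and 18.9 in the DLP, and 12.6 and 69.6 in the VP. The 5 other libraries lay between 12.6 and 26.6 FPKM, and MYC VP was above all of them. Col6a3 was 5.52-fold higher in MYC VP than in WT VP, with a 95% counting interval of the log2 ratio of 2.40 to 2.53 on an estimated 11172 and 2443 reads. The ratio of Col6a3 to Col6a1 was between 0.294 and 0.661 in the other libraries and 8.64 in MYC VP. Col6a3 was the highest collagen of MYC VP and 26.2% of all collagen FPKM there. Without it, collagen FPKM in VP went from 312 in WT to 196 in MYC, and the sum of the other beaded filament genes from 74.9 to 25.002. No second mouse was measured, so the genotype, the animal and this single library cannot be told apart here. The nearest gene of the table within 100 kb, Mlph, which encodes a melanosome transport protein, was lower in MYC VP, at 25.5 FPKM against 42.2.

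**Figure D3:**
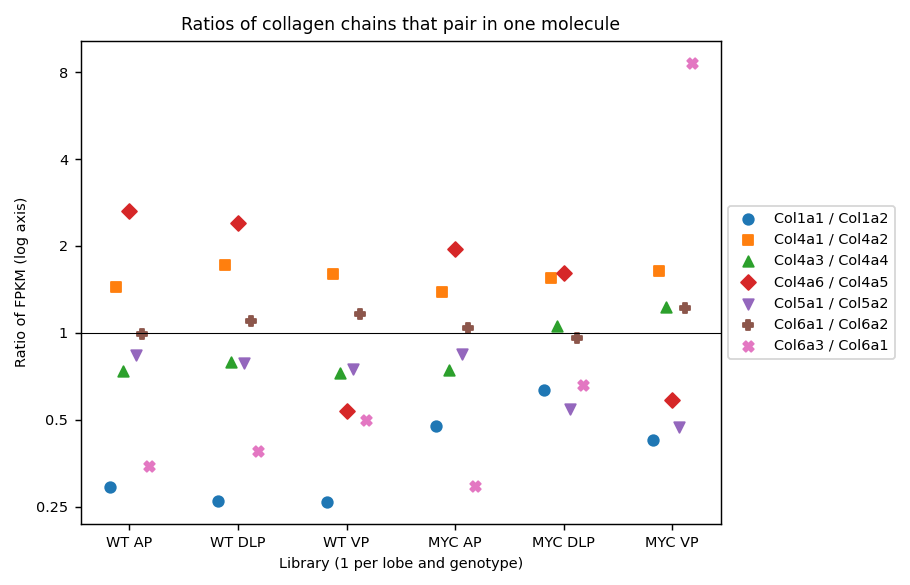
Ratio of FPKM of collagen chains that pair in a molecule, by library, on a log axis. Col6a1 over Col6a2 and Col4a1 over Col4a2 stay level, Col1a1 over Col1a2 is higher in the 3 MYC libraries, Col4a6 over Col4a5 is low in both VP libraries, and Col6a3 over Col6a1 is 8.64 in MYC VP.

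The promoter windows of Col6a1 (chr10:76725995-76726294, minus strand) and Col6a3 (chr1:90843922-90844221, minus strand) are printed because the chains differed most in VP. The window of Col1a2 (chr6:4505368-4505667, plus strand), a fibrillar gene higher in MYC AP, is printed beside them. Capitals again mark CCAAT and GGGCGG on either strand.
Col6a1: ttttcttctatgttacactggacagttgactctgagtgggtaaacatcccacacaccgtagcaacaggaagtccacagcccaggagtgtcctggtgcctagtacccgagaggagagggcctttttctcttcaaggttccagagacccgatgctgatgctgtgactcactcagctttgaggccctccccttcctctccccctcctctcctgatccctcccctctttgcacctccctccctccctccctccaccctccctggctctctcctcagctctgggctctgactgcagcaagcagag
Col6a3: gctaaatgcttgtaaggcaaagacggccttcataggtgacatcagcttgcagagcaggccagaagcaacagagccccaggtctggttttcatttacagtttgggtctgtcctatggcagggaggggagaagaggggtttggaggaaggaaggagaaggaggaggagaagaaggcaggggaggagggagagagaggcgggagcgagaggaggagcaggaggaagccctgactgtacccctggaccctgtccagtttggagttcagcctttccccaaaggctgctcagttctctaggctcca
Col1a2: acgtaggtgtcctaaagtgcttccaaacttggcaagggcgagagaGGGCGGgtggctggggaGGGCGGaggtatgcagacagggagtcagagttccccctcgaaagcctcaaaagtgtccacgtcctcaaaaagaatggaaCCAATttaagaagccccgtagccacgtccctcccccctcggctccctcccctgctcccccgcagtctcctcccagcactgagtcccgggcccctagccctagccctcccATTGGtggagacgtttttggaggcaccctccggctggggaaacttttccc
The Col1a2 window holds CCAAT on each strand, at -109 and from the start base onward, and 2 copies of GGGCGG, at -205 and -188 from the start. The windows of Col6a1 and Col6a3 hold neither of these motifs, nor TATAAA on the sense strand, nor the E-box CACGTG. The RefSeq table held 38 windows for 35 of the 44 collagen genes. GGGCGG on either strand was in 23 of the 38 windows (60.5%), against 35.7% of all 32851 windows. CCAAT on either strand was in 13 (34.2%), against 37.4% of all. TATAAA on the sense strand was in 5 (13.2%), against 8.32% of all. CACGTG, a palindrome known as a binding motif of MYC with MAX, was in none of the 38, against 7.15% of all windows of the same length. These are counts of letters in short windows and say nothing of binding. The table held no window for Col1a1, Col2a1, Col4a3, Col5a2, Col9a3, Col12a1, Col14a1, Col22a1 and Col26a1.

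The fourth type VI gene compared, Col6a5, was lower in MYC where it was high in WT. It had 1.42 and 4.04 FPKM in the AP of WT and MYC, 12.2 and 4.20 in the DLP, and 27.4 and 10.1 in the VP. In WT it spanned 19.3-fold between AP and VP, and in MYC the AP and DLP were alike at 4.04 and 4.20 FPKM. Its log2 ratio was 1.06 for AP and nearly the same for DLP and VP, at -1.34 and -1.36.

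Col15a1 was the other gene past 2-fold in opposite directions in AP and VP. It had 32.5 and 72.5 FPKM in the AP of WT and MYC, 24.02 and 16.7 in the DLP, and 9.23 and 3.42 in the VP. The log2 ratio was 1.13 for AP, -0.50 for DLP and -1.21 for VP. Over all genes compared, 0.316% were past 2-fold higher in AP and past 2-fold lower in VP, or 39 genes, and 2 of these were collagens. Under size factors the AP ratios of both fell just short of 2-fold, at 0.98 for Col15a1 and 0.95 for Col6a5. Col18a1, the second multiplexin, had 48.4 and 46.0 FPKM in the AP, 53.7 and 46.5 in the DLP, and 38.0 and 21.0 in the VP, with no lobe past 2-fold as deposited. Under equal sums of FPKM it was past 2-fold lower in VP, at -1.05, as was Col12a1, at -1.08.

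Without a threshold, 22 of the 30 genes were higher in MYC in AP and lower in MYC in VP, where 28.2% of all genes compared were. A single gene went the opposite way, 3 were higher in both lobes and 4 were lower in both. The log2 ratio in VP less that in AP had a median of -1.53 over the collagens and -0.05 over all genes, and was below 0 in 26 of the 30. It ranged from -2.54 (Col23a1) to 1.63 (Col6a3). Across the 30 genes, Pearson's r was -0.01 between the ratios in AP and VP, 0.47 between AP and DLP and 0.54 between DLP and VP, as a description of libraries from the same 2 animals. Over all genes compared it was 0.10, 0.32 and 0.52.

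**Figure D4:**
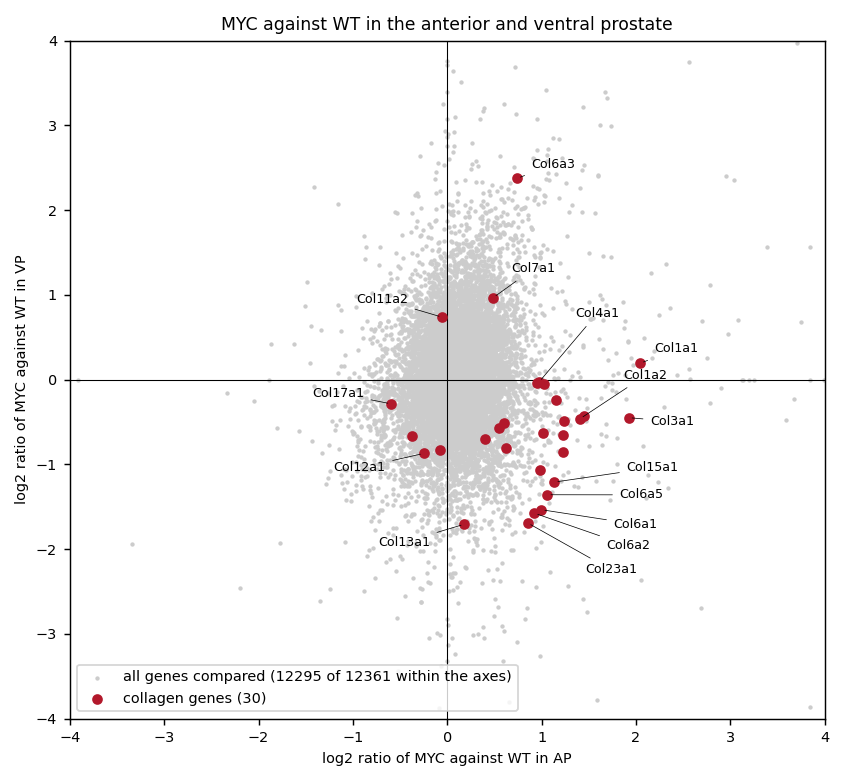
Log2 ratio of MYC against WT in AP (x axis) and in VP (y axis) for the collagen genes (red) and all genes compared (grey, those within the axes), on the scale of FPKM + 1. Of the 30 collagens, 22 lie at the lower right, higher in AP and lower in VP, and Col6a3 stands at the top.

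Col7a1 and Col17a1, which tie epithelium to its matrix, were not among the genes higher in AP and lower in VP. Col7a1, which forms the anchoring fibrils, had 6.54 and 9.56 FPKM in the AP of WT and MYC, 6.36 and 13.2 in the DLP, and 9.45 and 19.4 in the VP. It was higher in MYC in all 3 lobes, with log2 ratios of 0.49, 0.95 and 0.97, all under 2-fold on the scale of FPKM + 1 and past it in DLP and VP with a pseudocount of 0.1 (1.04 and 1.03). Besides Col7a1, this held for Col1a1 and Col6a3 only, and for Col1a1 not under equal sums of FPKM, where its VP ratio was -0.01. Col17a1 had 82.0 and 54.1 FPKM in the AP, 75.2 and 91.1 in the DLP, and 25.2 and 20.5 in the VP. It was lower in MYC in AP and VP and higher in DLP, as was the sum of the basal markers, though not each of them. Krt14 held most of the AP difference, at 760 and 333 FPKM, while Krt5 had a log2 ratio of 0.00 and Trp63 was called higher there, at 1.57, and Itgb4 was at 0.25 in VP. The sum was 1508 and 980 FPKM in the AP of WT and MYC, 1066 and 1417 in the DLP, and 498 and 353 in the VP. The other transmembrane collagens, Col13a1 and Col23a1, had the lowest log2 ratios of all collagens in VP, at -1.71 and -1.69. Col13a1 went from 5.71 FPKM in the WT library to 1.06 in the MYC library, and Col23a1 from 6.18 to 1.22. Col13a1 was also called lower in DLP, at -1.18.

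The fibril-associated collagens, which sit on the surface of fibrils, split. Col16a1 had 15.2 and 31.7 FPKM in the AP of WT and MYC, 16.2 and 25.04 in the DLP, and 10.5 and 6.41 in the VP, and moved much as the fibrillar genes did, with log2 ratios of 1.01, 0.60 and -0.63. Under equal sums of FPKM or size factors its AP ratio was 0.99 or 0.86. Col12a1, a large collagen of tissues under tension, had 15.1 and 12.5 FPKM in the AP, 17.2 and 11.5 in the DLP, and 16.1 and 8.35 in the VP. It was lower in MYC in all 3 lobes, at -0.25, -0.55 and -0.87, as were Col18a1 and Col20a1. Col14a1 had 0.55, 0.23 and -0.57. The short-chain collagens Col8a1 and Col8a2, of vessel walls and Descemet's membrane, had at most 3.85 and 3.56 FPKM, and Col8a1 was called higher in MYC DLP, at 1.14.

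The collagen ratios were set beside those of the fibroblast markers, since the transgene is driven in the epithelium and collagens are stromal for the most part. The 12 fibroblast genes had median log2 ratios of 0.31 in the AP, -0.78 in the DLP and -1.85 in the VP. In VP, 11 of the 12 were called lower (5.95% of all genes), in DLP 5 (3.39%), and in AP none was called. The 10 smooth muscle genes had medians of 0.60, -0.83 and -0.92, with 3 called lower in DLP and 3 in VP. Less the fibroblast median of the same lobe, the median collagen ratio was 0.65 for AP, 0.70 for DLP and 1.25 for VP, and 24, 26 and 30 of the 30 genes lay above it. The collagens in VP were therefore less far below WT than the fibroblast markers, and by this measure the direction in DLP and VP was turned. Endothelial markers had medians of 0.10, 0.13 and 0.09. In the hematopoietic list, whose median was 0.01 in AP, all 7 genes were called higher in DLP (6.46% of all genes) and 6 of 7 in VP (6.88%). The medians were 0.22, -0.42 and -0.10 over 5 pericyte genes, -0.23, 0.48 and -0.59 over 7 basal genes, and -0.22, 0.25 and -0.23 over 5 luminal genes. Of the adipocyte and Schwann cell lists only 1 and 2 genes were compared, none called, and Plin1 was at 0 in every library. Of 9 seminal vesicle genes, 8 had a higher level in the AP of MYC than of WT, led by Svs4 and Svs5. The part of these cell types in the collagen ratios was not tested.

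The genes that make and handle collagen had smaller ratios than the collagens in AP, with a median log2 ratio of 0.27 for synthesis and 0.25 for processing. Of the 16 genes compared for modification and folding in the endoplasmic reticulum, none was called in AP, 1 was higher in DLP and 4 were lower in VP. Over all genes compared, 2.05% were called higher in AP, 6.46% higher and 3.39% lower in DLP, and 6.88% higher and 5.95% lower in VP, so that 1 gene of 16 in DLP is near the share of all genes. Fkbp10, a prolyl isomerase that aids procollagen folding, led in AP at a log2 ratio of 0.78. Plod2, the lysyl hydroxylase of telopeptides, was higher in MYC DLP (3.57 to 9.14 FPKM, 1.15), and P4ha2, a subunit of prolyl 4-hydroxylase, was lower in MYC VP (8.66 to 2.19 FPKM, -1.60). Of 10 genes for propeptide removal and crosslinking, 3 were higher in AP, 1 was lower in DLP and 2 were lower in VP. Among these, Pcolce, the enhancer of procollagen C-proteinase, had 35.4 and 78.0 FPKM in the AP of WT and MYC. Pcolce2 had 4.07 and 0.969 FPKM in the DLP. Lox, the lysyl oxidase that crosslinks fibrils, had 17.5 and 4.85 FPKM in the VP.

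The partners of fibrils, like the fibroblast markers, were low in MYC VP, and their log2 ratios had a median of -1.38. Of 10 small proteoglycans and other fibril partners, 2 of which are also in the fibroblast list, 1 was higher in AP, 1 was higher and 3 were lower in DLP, and 7 were lower in VP, where 2.05%, 6.46%, 3.39% and 5.95% of all genes were. Sparc, a collagen-binding glycoprotein, had 132 and 312 FPKM in the AP of WT and MYC. Ogn, the proteoglycan osteoglycin, was lower in MYC in both other lobes, with 46.6 and 8.68 FPKM in the DLP and 45.0 and 6.38 in the VP. Of 14 basement membrane partners, none was called in AP, 1 was higher and 1 lower in DLP, and 5 were lower in VP, where 6.46%, 3.39% and 5.95% of all genes were. Lama2, the laminin chain of muscle basement membrane, led in DLP at -1.62 and Lamb2 led in VP at -1.75.

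Among 6 collagen receptors, 1 was lower in each lobe, where 0.599%, 3.39% and 5.95% of all genes were. This was Itga2, an integrin chain that binds collagen I, in AP (28.4 to 12.5 FPKM) and Ddr2, a receptor kinase for fibrillar collagen, in DLP (9.90 to 2.95 FPKM) and VP (6.08 to 1.65 FPKM). Among 7 genes of collagen breakdown, 1 was higher in AP, 2 were higher in DLP, and 1 was higher and 1 lower in VP, where the shares of all genes were 2.05%, 6.46%, 6.88% and 5.95%. Timp1, an inhibitor of metalloproteinases, was called higher in each lobe, with 16.5 and 85.8 FPKM in the AP of WT and MYC, 11.8 and 232 in the DLP, and 8.06 and 22.3 in the VP. Timp2, a second such inhibitor, had 101 and 34.7 FPKM in the VP. Of 11 genes of TGF-beta signalling, a main inducer of collagen genes, none was called in AP, 2 were higher in DLP and 2 were lower in VP, where 6.46% and 5.95% of all genes were. Both calls in DLP sat on the threshold, with log2 ratios of 1.0001 for Tgfb1 and 1.002 for Smad3. Tgfb1 had -0.71 in AP, and Ctgf had -1.52 in VP.

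Counting error was small beside most of these ratios. The 95% counting interval excluded 0 for 29 of the 30 genes in AP, 29 in DLP and 27 in VP, and the fewest reads estimated for a compared gene in a MYC or WT library of these contrasts were 49.0. The differences between animals, dissections and library preparations were not measured.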

How the data were processed

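The authors mapped single-end 75-base reads with STAR and quantified genes with Cufflinks in the VIPER workflow, on the build mm10 per the submitters' processing notes, which also list bcl2fastq 2.18. The annotation is not given in the sources used here. The deposited table holds FPKM for the 6 libraries, although the methods speak of read counts: the values are fractional and add up to between 374085 and 483143 in a library. No count model was therefore run. Groups were taken from the sample titles.

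Ratios were log2((FPKM + 1) of the first library / (FPKM + 1) of the second) over genes whose mean reached 1 FPKM, called at 2-fold. A read's worth was recovered from single-exon genes below 0.3 FPKM. Of such values, 51.9% to 61.9% per library came out whole to within 0.1 read. Reads per gene followed from transcript lengths (GENCODE M1 on mm9, 43 of the 44 genes; the median length stood in for the other). The estimates served for intervals alone. Positions and promoter windows are RefSeq's on GRCm38.p6, matched by symbol for all 44 genes. Protein sequences were not analysed here.

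Values in every library are given for the 15 genes whose mean reached 10 FPKM and for those past 2-fold in opposite directions in AP and VP. From each pathway list, the gene with the largest absolute ratio per lobe was named, and further names were picked with the values in view. A gene that this rule names is not reported here. The collagens, lists and rules were chosen with earlier results of these data known. Alternatives were 2 other scalings, a pseudocount of 0.1, 2 other filters on the mean, a 4-fold threshold and ratios less the fibroblast median, and, added after seeing the data, a minimum of 30 estimated reads. The computations were tested on simulated data. Tools were Python 3.11.15 with pandas 2.3.3, numpy 2.4.6, matplotlib 3.10.9 and scipy 1.17.1.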

Additional observations from a re-analysis of the deposited data

Results flagged for a closer look

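Col15a1 was past 2-fold higher in MYC AP and past 2-fold lower in MYC VP, and its log2 ratio of MYC against WT in VP less that in AP was -2.34. Col6a5 was in the same position, with -2.42 for VP less AP and -2.40 for DLP less AP. These differences between lobes were picked because the single MYC library of each lobe went opposite ways against its WT library. They were not tested, since each lobe and genotype has 1 library. Under size factors the AP ratios of Col15a1 and Col6a5 were 0.98 and 0.95, short of 2-fold. Col23a1 (-2.54), Col6a1 (-2.53) and Col6a2 (-2.50) had larger differences of VP less AP, with an AP ratio under 2-fold.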

How the results depend on the processing

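No paired analysis was possible because each lobe and genotype has 1 library: the lobes of a genotype share an animal, but this gives a single pair for any 2 lobes, and WT and MYC libraries share no animal. No library could be left out of a comparison for the same reason. The AP median of 0.96, the VP median of -0.60 kept their direction under both scalings, the other pseudocount and the stricter filter. With size factors, 5 rather than 8 collagens differed 2-fold between WT VP and WT AP. With a pseudocount of 0.1, 15 rather than 8 did in MYC against WT VP, 3 higher and 12 lower. With a mean of at least 10 FPKM, which leaves 15 genes, the counts were 6 in AP, 2 in DLP, 4 in VP, 3 in WT VP against WT DLP and 0 in WT DLP against WT AP. Of these 15 genes, 9 were higher in AP and lower in VP. These counts are over fewer genes. The DLP median was 0.47 rather than -0.08, so its sign depends on which genes are taken. At 4-fold, 1 gene was called higher in MYC in each lobe and none was called lower, and the gene in VP was Col6a3. In WT VP, 1 gene was called higher and 1 lower against WT AP, and 1 lower against WT DLP. Less the fibroblast median, the DLP and VP medians were 0.70 and 1.25, by construction above the plain ones. Of 144 values of the 16 named genes under the other scalings and pseudocount, 133 stayed on their side of 2-fold, 5 dropped below it and 6 passed it. The sign changed in 1 of the 144, Col1a1 in VP, from 0.19 to -0.01 under equal sums. Equal sums shifted the all-gene median of VP from 0.04 to -0.15. Depth was least in WT AP, so its low genes are the least precise, and there is no measure of the spread between mice.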

Other observations

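The 14 collagen genes below the filter held a few values that stand out. Col9a2, a fibril-associated collagen known from cartilage, had 1.59 FPKM in WT VP, 0.408 in WT DLP, 0.0924 in WT AP and 0.345 in MYC VP, and was the only one of them above 1 FPKM in any library. Col25a1, a transmembrane collagen, had 0.330 FPKM in WT VP and at most 0.0385 in the other libraries. Col10a1, known from hypertrophic cartilage, had 0.373 FPKM in MYC DLP, an estimated 38.1 reads, and was listed at 0 in the 3 WT libraries. Col11a1 had 0.349 FPKM in MYC DLP and 0.561 in MYC VP, against 0.130 and 0.303 in the same lobes of WT. Of the other genes below the filter, Col2a1, Col6a4, Col9a1, Col19a1, Col22a1 and Col26a1 stayed under 0.1 FPKM in every library.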
